A study of Homo sapiens with 11 samples.

Results

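The plasminogen activators and their inhibitors were followed as 6 genes: PLAU (urokinase, uPA), PLAT (tissue plasminogen activator, tPA), PLAUR (the urokinase receptor, uPAR), SERPINE2 (protease nexin-1), SERPINB2 (plasminogen activator inhibitor 2, PAI-2) and SERPINB7 (megsin). They were taken by symbol from the table of counts per gene, which names 35303 genes, and 6 of 6 were found there. The RNA came from LX-2 cells, an established line of immortalised human hepatic stellate cells, kept in DMEM with fetal bovine serum and labelled as wild type. The first group (HIV-1+LTA) received HIV-1BaL, a laboratory strain, at a multiplicity of infection of 0.1 together with lipoteichoic acid (LTA, a cell wall polymer of Gram-positive bacteria, recognised by Toll-like receptor TLR2) at 1 µg per ml, the second (HIV-1) received the virus alone, and the third (PBS) received buffer. RNA was sequenced after 24 h, in 3 libraries a group, and the labels assign 1 library of each group to each of 3 numbered batches. No library had LTA without virus, so LTA was compared only in cells with virus. All libraries come from 1 cell line, and the labels do not say what a batch shares or whether libraries of a batch were separate cultures, so the p-values measure only how these libraries vary, and part of that may be technical.

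Urokinase and tissue plasminogen activator are serine proteases that cut plasminogen, a liver-made zymogen of blood, into plasmin, which dissolves fibrin and degrades other matrix proteins directly and through matrix metalloproteinases. Urokinase acts at the cell surface on its receptor, while tissue plasminogen activator works best on fibrin. Serpins stop the proteases by trapping them in a covalent complex: PAI-2 inhibits mainly urokinase, and protease nexin-1 inhibits thrombin as well as urokinase and plasmin. In fibrotic liver, activated stellate cells are a known source of both matrix and the enzymes and inhibitors that turn it over.

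The libraries held 50.6 to 90.6 M counts, and levels are given as CPM, counts per 1000000 counts of the library after TMM scaling. All libraries of batch 3 stood apart from those of batches 1 and 2 in every treatment, and the libraries of batch 1 lay close to each other. Over the 16117 genes tested the median absolute difference (log2 CPM) in batches 1, 2 and 3 was 0.072, 0.17 and 0.18 for HIV-1+LTA minus PBS, 0.072, 0.18 and 0.16 for HIV-1+LTA minus HIV-1, and 0.074, 0.10 and 0.12 for HIV-1 minus PBS. In batch 1 HIV-1+LTA was thus no further from PBS than HIV-1 was, and results below are given by batch and with libraries left out. Of 13 stellate cell and myofibroblast markers 10 averaged at least 1 CPM over all 9 libraries. The 13 summed to 3367 to 5619 CPM in HIV-1+LTA, 3661 to 6600 CPM in HIV-1 and 3213 to 7025 CPM in PBS. COL1A1 was at 793.7 to 1426 CPM and ACTA2 at 71.95 to 217.7 CPM, whereas DES stayed at or below 0.259 CPM, LRAT had at most 2 counts in a library, and DCN and LUM were at 0 in batch 3. Hepatocyte, macrophage and endothelial lists each summed to at most 2.82 CPM in any library. The T cell list summed to 2.50 to 18.4 CPM in HIV-1+LTA, 1.70 to 14.5 CPM in HIV-1 and 1.58 to 13.7 CPM in PBS, nearly all of it CD4, with CD2 at 0 counts. The cholangiocyte list summed to 23.3 to 38.7 CPM in HIV-1+LTA, 29.0 to 38.0 CPM in HIV-1 and 26.8 to 33.8 CPM in PBS, mostly SOX9. The part of these cell types in the results was not tested.

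The sequences just upstream of the starts of PLAU, SERPINB7 and PLAUR are shown because these genes had the widest differences between treatments, and because TLR2 signalling is known to end on AP-1 and NF-kB. They were taken from RefSeq (GRCh38.p14), 250 bases before the transcription start, 5′ to 3′ on the strand of the gene, and capitals mark TGANTCA, the core AP-1 motif (N is any base), searched on both strands, where it is the same as its own reverse complement. PLAU is read on the plus strand at chr10:73910882-73911131, SERPINB7 on the plus strand at chr18:63775168-63775417 and PLAUR on the minus strand at chr19:43670170-43670419.
PLAU: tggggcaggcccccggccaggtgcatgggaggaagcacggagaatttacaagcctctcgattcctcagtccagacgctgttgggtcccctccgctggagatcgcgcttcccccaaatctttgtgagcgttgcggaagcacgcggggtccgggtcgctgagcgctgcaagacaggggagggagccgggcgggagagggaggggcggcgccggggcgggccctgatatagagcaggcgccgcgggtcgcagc
SERPINB7: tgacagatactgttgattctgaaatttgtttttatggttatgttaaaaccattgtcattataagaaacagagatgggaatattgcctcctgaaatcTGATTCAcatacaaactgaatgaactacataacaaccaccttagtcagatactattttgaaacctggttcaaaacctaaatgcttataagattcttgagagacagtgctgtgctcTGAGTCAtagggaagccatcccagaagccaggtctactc
PLAUR: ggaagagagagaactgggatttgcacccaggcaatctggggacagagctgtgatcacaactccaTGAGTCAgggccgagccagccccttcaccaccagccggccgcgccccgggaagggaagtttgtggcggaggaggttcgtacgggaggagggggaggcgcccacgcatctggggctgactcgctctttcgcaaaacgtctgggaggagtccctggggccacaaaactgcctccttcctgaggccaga
The PLAUR window held 1 AP-1 match, starting 186 bases before the start. SERPINB7 has 3 RefSeq start windows. The one shown held 2 matches, at 154 and 39 bases, a further window also held 2, at 206 and 45 bases, and the remaining one held none. The sequence after the start lay near the start of 2 annotated transcripts for the window shown. It did so for 2 for the window with none and 0 for the further window. Which start LX-2 cells use was not tested. SERPINB2 held 1, at 102 bases. Neither PLAU window and neither SERPINE2 window held these letters. Among 35116 RefSeq windows of the same length 6.57% held the AP-1 letters. The NF-kB consensus, also searched on both strands, was found in 9.96% of all windows and among the 9 windows of PLAU, PLAUR, SERPINE2, SERPINB2 and SERPINB7 in 1, of SERPINB7, at 207 bases. PLAT was not looked up. These matches describe letters in a window and were not tested as binding sites.

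Per length of merged exon, the activators, the receptor and protease nexin-1 came out at like levels, megsin lower and PAI-2 close to nothing. Merged length takes in all annotated exons of a gene: 2.95 kb for PLAU, 4.46 for PLAUR, 7.77 for PLAT and 8.96 for SERPINE2. The likeness rests on this divisor, since the transcripts made by these cells may be shorter. Undivided, the means of these genes were 31.0, 46.9, 90.8 and 135.7 CPM in that order. Over all 9 libraries SERPINE2 averaged 15.2 ± 4.28 CPM per kb (SD, n = 9), PLAT 11.7 ± 3.77, PLAUR 10.5 ± 2.77, PLAU 10.5 ± 4.82 and SERPINB7 2.27 ± 1.07 CPM per kb. The SD ranges of the first 4 of these overlapped, though these SDs pool all treatments and batches. Their order changed between batches: in batch 1 PLAU came first among them in all treatments, and in batch 3 it came last in all treatments. SERPINE2, however, stayed above PLAT in every library. SERPINB7 was below each of those 4 genes in 8 of 9 libraries; in PBS of batch 3 it stood at 4.40 CPM per kb, above PLAU at 3.26. SERPINB2 never exceeded 0.0312 CPM per kb.

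**Figure D1:**
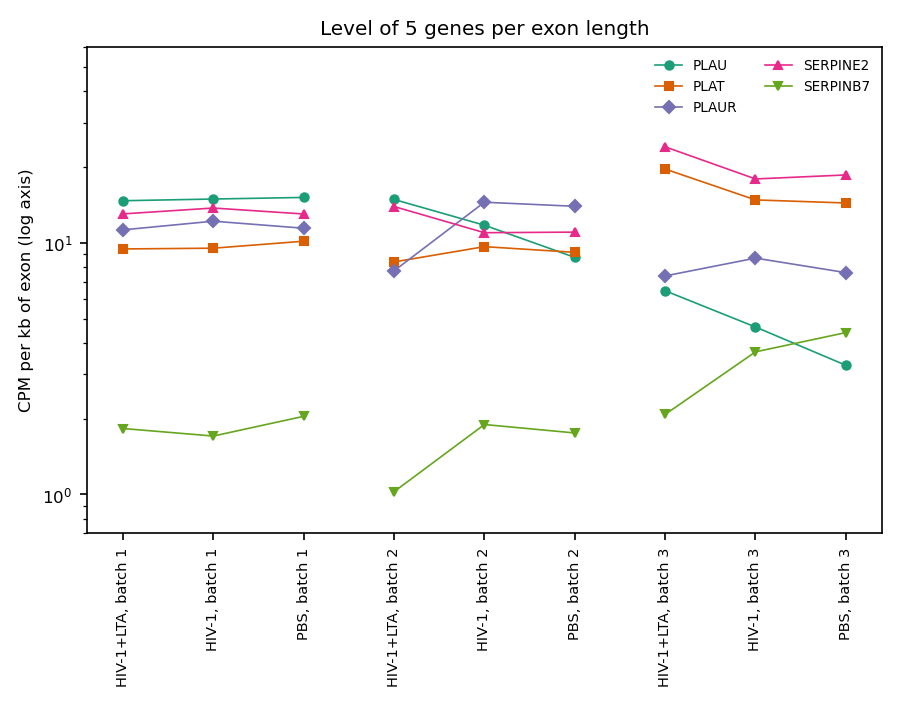
Level per length (y axis, CPM per kb of exon, log axis) of PLAU, PLAT, PLAUR, SERPINE2 and SERPINB7 in each library (x axis), grouped by batch, with HIV-1+LTA, HIV-1 and PBS in turn and a line joining the libraries of a batch. PLAU lies above the other genes in batch 1 and below PLAT, PLAUR and SERPINE2 in batch 3, and SERPINB7 lies lowest except in PBS of batch 3, where it is at 4.40 against 3.26 for PLAU.

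**Figure D2:**
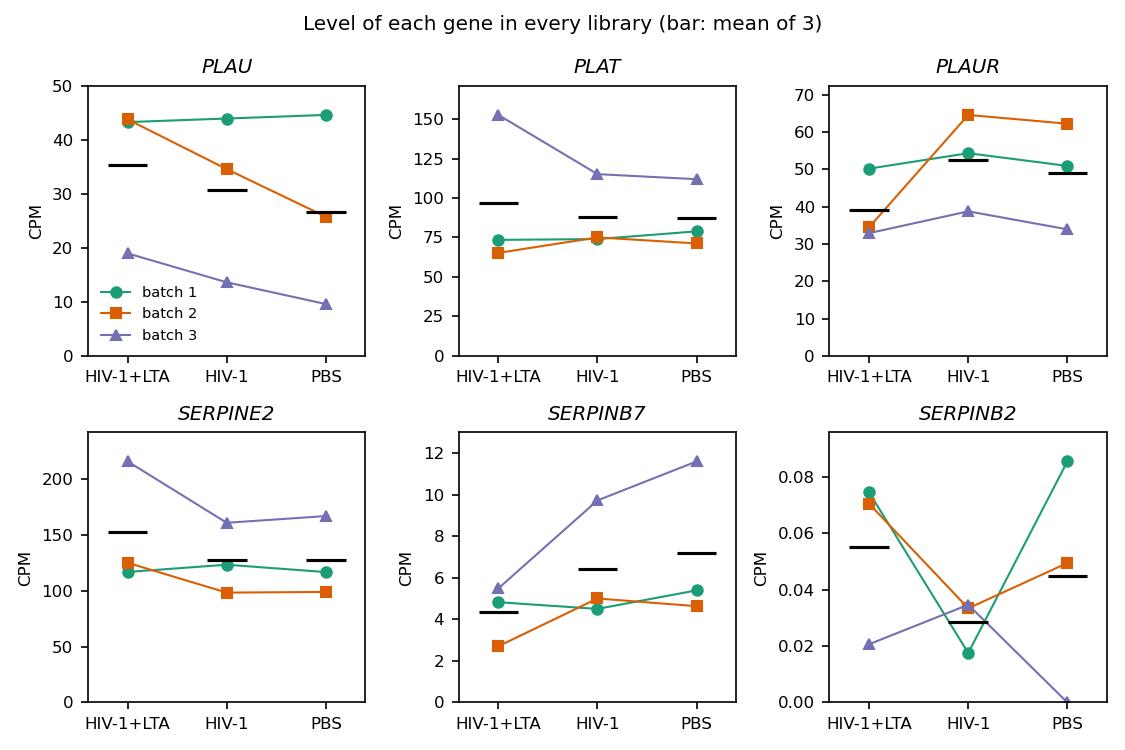
Level of each of the 6 genes (y axis, CPM, from 0) in HIV-1+LTA, HIV-1 and PBS libraries (x axis), with 1 colour, marker and line for each batch and a black bar at the mean of 3 libraries. PLAU ranges from 19.0 to 43.9 CPM in HIV-1+LTA and from 9.62 to 44.7 CPM in PBS, and its batch 1 line is flat, while the SERPINB2 panel rests on at most 8 counts per library.

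PLAU encodes urokinase (hg19, chr10:75668935-75677254, plus strand). It was at 43.4, 43.9 and 19.0 CPM in HIV-1+LTA of batches 1, 2 and 3, at 44.02, 34.6 and 13.7 CPM in HIV-1 and at 44.7, 25.8 and 9.62 CPM in PBS. In batches 2 and 3 the level was highest in HIV-1+LTA, intermediate in HIV-1 and lowest in PBS, while in batch 1 all treatments were alike, and the groups overlapped. Within batches 1, 2 and 3 HIV-1+LTA differed from PBS by -0.044, 0.76 and 0.98 (log2 CPM), which in batch 3 is a 1.98-fold higher level. The fitted log2 fold change, with batch as a block, was 0.53 (SE 0.142) for HIV-1+LTA over PBS, with an edgeR adjusted p of 0.205 and an unadjusted p of 0.00294. It was 0.27 (SE 0.141, edgeR adjusted p 0.389) for HIV-1+LTA over HIV-1 and 0.26 (SE 0.142, edgeR adjusted p 0.946) for HIV-1 over PBS, so no comparison passed. Without PBS replicate 1 edgeR called PLAU higher in HIV-1+LTA over PBS (0.79, SE 0.107, adjusted p 0.0302; 0.551% of genes called), and DESeq2 with the block then called it higher in HIV-1 over PBS too (0.53, SE 0.123, adjusted p 0.0144; 0.174% of genes called), as it did without all libraries of batch 1 (0.45, SE 0.115, adjusted p 0.0309; 0.45% of genes called). Exons of C10orf55, an antisense gene, overlap PLAU over 915 bases; C10orf55 had 37 to 98 counts per library against 481 to 4185 for PLAU, and since the strand setting of the counting is not given, reads of the overlap cannot be assigned to either strand.

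PLAT encodes tissue plasminogen activator (hg19, chr8:42032236-42065227, minus strand). It was at 73.5, 65.2 and 152.6 CPM in HIV-1+LTA of batches 1, 2 and 3, at 74.0, 75.0 and 115.1 CPM in HIV-1 and at 78.9, 71.2 and 111.9 CPM in PBS. The HIV-1+LTA library of batch 3 was the highest of all, and in batches 1 and 2 the HIV-1+LTA library was the lowest of its batch. The log2 fold change was 0.080 (SE 0.101, 95% interval -0.14 to 0.30) for HIV-1+LTA over PBS, 0.074 (SE 0.101) for HIV-1+LTA over HIV-1 and 0.0059 (SE 0.101) for HIV-1 over PBS. None passed in edgeR (adjusted p 0.716, 0.764 and 0.999), and in each comparison the sign turned when some libraries were left out.

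PLAUR encodes the receptor that holds urokinase at the cell surface (hg19, chr19:44150247-44174699, minus strand). It was at 50.2, 34.5 and 32.9 CPM in HIV-1+LTA of batches 1, 2 and 3, at 54.4, 64.6 and 38.8 CPM in HIV-1 and at 50.9, 62.3 and 33.9 CPM in PBS. HIV-1+LTA was the lowest library of each batch, but by a wide margin only in batch 2, where it was at 0.554 of PBS. Within batches 1, 2 and 3 HIV-1+LTA differed from PBS by -0.021, -0.85 and -0.044, and from HIV-1 by -0.11, -0.90 and -0.24 (log2 CPM). The log2 fold change was -0.30 (SE 0.135, edgeR adjusted p 0.292) for HIV-1+LTA over PBS, -0.41 (SE 0.135, edgeR adjusted p 0.220) for HIV-1+LTA over HIV-1 and 0.11 (SE 0.133, edgeR adjusted p 0.954) for HIV-1 over PBS. Without batch 2 the change over PBS was -0.029 (SE 0.0686) and that over HIV-1 was -0.17 (SE 0.0686), so most of the size came from that batch.

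SERPINE2 encodes protease nexin-1 (hg19, chr2:224839762-224904035, minus strand). It was at 116.7, 124.9 and 215.6 CPM in HIV-1+LTA of batches 1, 2 and 3, at 123.2, 98.2 and 160.7 CPM in HIV-1 and at 116.6, 98.8 and 166.7 CPM in PBS. HIV-1+LTA was the highest library in batches 2 and 3, and in batch 1 it lay at the level of PBS and below HIV-1. Against PBS the difference was 0.0012, 0.34 and 0.37 in batches 1, 2 and 3 (log2 CPM). The log2 fold change was 0.24 (SE 0.0805, edgeR adjusted p 0.210) for HIV-1+LTA over PBS, 0.23 (SE 0.0807, edgeR adjusted p 0.235) for HIV-1+LTA over HIV-1 and 0.0075 (SE 0.0806, edgeR adjusted p 0.996) for HIV-1 over PBS.

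SERPINB7 encodes megsin, a clade B serpin first known from kidney mesangial cells (hg19, chr18:61420169-61472610, plus strand). It was at 4.82, 2.71 and 5.49 CPM in HIV-1+LTA of batches 1, 2 and 3, at 4.50, 5.003 and 9.72 CPM in HIV-1 and at 5.39, 4.63 and 11.6 CPM in PBS, from 192 to 580 counts per library. HIV-1+LTA was lowest in batches 2 and 3, and in batch 1 it lay between HIV-1 and PBS. Within batches 1, 2 and 3 HIV-1+LTA differed from PBS by -0.16, -0.77 and -1.08, and from HIV-1 by 0.099, -0.88 and -0.82 (log2 CPM). The log2 fold change was -0.65 (SE 0.176, edgeR adjusted p 0.205) for HIV-1+LTA over PBS, -0.52 (SE 0.179, edgeR adjusted p 0.230) for HIV-1+LTA over HIV-1 and -0.13 (SE 0.172, edgeR adjusted p 0.957) for HIV-1 over PBS. DESeq2 with the same block called it lower in HIV-1+LTA than in PBS, at a log2 fold change of -0.66 (SE 0.179, adjusted p 0.0285). With each library left out in turn this call was kept in 3 of 9 fits. It was kept without replicate 1 of PBS, HIV-1 or HIV-1+LTA and lost without replicate 2 or 3 of any group, and over the 9 fits the log2 fold change ran from -0.97 to -0.48 and the DESeq2 adjusted p up to 1.00. The authors' deposited table gives SERPINB7 these same values; it names no comparison, but all 19990 of its log2 fold changes lie within 0.01 of this fit.

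SERPINB2 encodes PAI-2 (hg19, chr18:61538926-61571122, plus strand). It had 5, 5 and 1 counts in HIV-1+LTA of batches 1, 2 and 3, 1, 2 and 2 counts in HIV-1 and 8, 4 and 0 counts in PBS. The groups overlapped at a few counts per library, and the 0 in PBS of batch 3 allows a level of up to 0.060 CPM (3 counts, counting error only). It did not pass the filter on low counts, and a difference between treatments was not detectable at this depth.

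**Figure D3:**
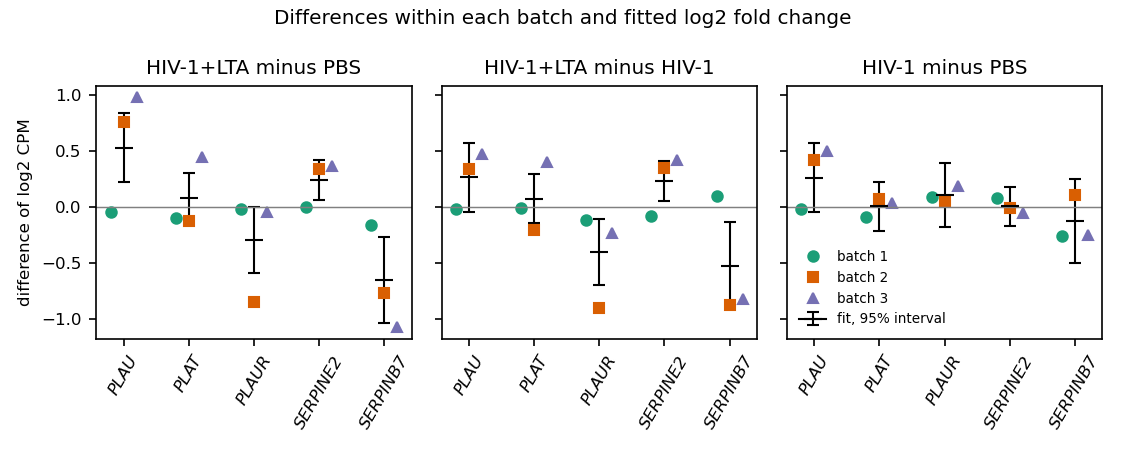
Difference of log2 CPM within each batch (coloured markers) and the log2 fold change of the edgeR fit with its 95% interval (black), for the 5 genes tested (x axis), in HIV-1+LTA minus PBS, HIV-1+LTA minus HIV-1 and HIV-1 minus PBS (panels, shared y axis). In HIV-1+LTA minus PBS the batch 1 markers lie between -0.16 and 0.0012, while in batches 2 and 3 PLAU is at 0.76 and 0.98 and SERPINB7 at -0.77 and -1.08.

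Of the 6 genes 5 passed the filter on low counts, and edgeR with the replicate block called 0 of 5 in each comparison, against 0.0% of all 16117 genes tested. At an unadjusted p below 0.05, 4 of 5 stood out in HIV-1+LTA over PBS (PLAU and SERPINE2 higher, PLAUR and SERPINB7 lower; 16.8% of all genes, 8.67% higher and 8.13% lower), 3 of 5 in HIV-1+LTA over HIV-1 (SERPINE2 higher, PLAUR and SERPINB7 lower; 15.4% of all genes, 8.11% higher and 7.32% lower) and 0 of 5 in HIV-1 over PBS (4.21% of all genes). The HIV-1+LTA libraries enter both comparisons with LTA, so these are not independent. The members were also chosen with earlier results of these data known, so their share beside that of all genes is not an independent test. DESeq2 with the block called 1 of 5, SERPINB7, in HIV-1+LTA over PBS, against 1.93% of the 12239 genes with an adjusted p (0.964% of them called lower). It called 0 of 5 in HIV-1+LTA over HIV-1, against 1.94% of genes (1.4% higher and 0.538% lower), and 0 of 5 in HIV-1 over PBS, against 0.015%; the counts at an unadjusted p are those of edgeR above. The median log2 fold change of the 5 was 0.080 for HIV-1+LTA over PBS, 0.074 for HIV-1+LTA over HIV-1 and 0.0075 for HIV-1 over PBS, and over all genes it was 0.0016, -0.0038 and -0.0015. In HIV-1+LTA over PBS 3 of 5 had the same sign in all 3 batches (PLAUR, SERPINE2 and SERPINB7), against 33.8% of all genes. Some of these differences were close to 0: 0.0012 for SERPINE2 in batch 1, and -0.021 and -0.044 for PLAUR in batches 1 and 3 (log2 CPM). In HIV-1+LTA over HIV-1 and in HIV-1 over PBS only PLAUR kept its sign in all 3 batches. The share of all genes is not given for these comparisons.

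The number of members called changed with the libraries in the fit, and with some but not all choices of filter on low counts and of tool. Without HIV-1+LTA replicate 1 edgeR called 4 of 5 over PBS, where 16.2% of all genes were called, and the same 4 over HIV-1, where 14.6% were called. PLAU was then at 0.76 (SE 0.103, edgeR adjusted p 0.000351) and SERPINE2 at 0.37 (SE 0.0507, edgeR adjusted p 0.000382) over PBS. PLAUR was at -0.46 (SE 0.127, edgeR adjusted p 0.0250) and SERPINB7 at -0.97 (SE 0.13, edgeR adjusted p 0.000351). PLAT was at 0.15 (SE 0.104) and was not called. DESeq2 without the same library called 3 of 5 in both comparisons (PLAU, SERPINE2 and SERPINB7), where 18.8% of genes were called over PBS and 15.9% over HIV-1, and did not call PLAUR (DESeq2 adjusted p 0.175 over PBS and 0.0946 over HIV-1). With all libraries of batch 1 left out, edgeR called 3 of 5 over PBS (10.7% of all genes) and 4 of 5 over HIV-1 (9.69%); PLAUR was the one not called over PBS, at -0.45 (SE 0.149, edgeR adjusted p 0.0824). Without HIV-1+LTA replicate 2 or replicate 3 neither edgeR nor DESeq2 called a member. With all 9 libraries and no filter on low counts edgeR called PLAU, SERPINE2, PLAUR and SERPINB7 in both comparisons with LTA, where 4.14% of all genes were called over PBS and 4.02% over HIV-1. A cause for the small differences within batch 1 was not tested.

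In the fits of all 9 libraries the batch moved these genes further than any treatment. All 5 differed between batches in edgeR, as did 68.2% of all genes. As a description, since batch 3 was known to stand apart, batch 3 against the mean of batches 1 and 2 gave log2 differences of -1.50 (SE 0.133) for PLAU and -0.57 (SE 0.119) for PLAUR, and of 0.79 (SE 0.0855) for PLAT, 0.67 (SE 0.0683) for SERPINE2 and 0.96 (SE 0.147) for SERPINB7. Urokinase and its receptor were thus lower in batch 3, and tissue plasminogen activator and both serpins higher. PLAU averaged 14.1 ± 4.72 CPM in batch 3, 34.8 ± 9.02 CPM in batch 2 and 44.02 ± 0.665 CPM in batch 1 (SD, n = 3 each). In bulk RNA a change in the share of cells of a kind and a change of RNA per cell cannot be told apart.

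The other genes of the system were described by lists. Of 12 other inhibitors and zymogens 5 were tested and edgeR called 0 in each comparison. SERPING1, the C1 inhibitor, which also inhibits plasma kallikrein and factor XII, rose in HIV-1+LTA over HIV-1 in DESeq2 (0.64, SE 0.169, adjusted p 0.0161; 1.94% of genes called, 5 of 9 fits with a library left out), and over PBS it was at 0.42 (SE 0.167, DESeq2 adjusted p 0.150). SERPINE3, a further serpin of clade E, was at 0.28 (SE 0.456, edgeR adjusted p 0.785), F12 at 0.23 (SE 0.318, edgeR adjusted p 0.738), and SERPINI1, neuroserpin, at 0.23 (SE 0.252, edgeR adjusted p 0.672) over PBS.

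Of 18 plasminogen receptors, uPAR partners and clearance receptors 17 were tested, and edgeR called 0 in each comparison. In DESeq2 1 rose and 1 fell in HIV-1+LTA over PBS, against 0.964% of genes called in each direction. MRC2, the collagen uptake receptor uPARAP that binds the urokinase receptor, rose by 0.32 (SE 0.092, DESeq2 adjusted p 0.0413) on the log2 scale. ITGB3, the integrin subunit beta 3, a vitronectin receptor subunit, fell by 0.37 (SE 0.1, DESeq2 adjusted p 0.0275). Relative to HIV-1, VTN, vitronectin, which binds the urokinase receptor, rose by 0.84 (SE 0.217, DESeq2 adjusted p 0.0132) and ITGA5, the fibronectin receptor subunit alpha 5, fell by 0.27 (SE 0.0719, DESeq2 adjusted p 0.0203). These calls depended on which libraries were in the fit: with each of 9 libraries left out in turn, in fits added after the calls were seen, the call was kept in 1 fit for MRC2, 2 for ITGB3, 5 for VTN and 3 for ITGA5. All were lost without HIV-1+LTA replicate 2 or 3, with log2 fold changes over the 9 fits of 0.20 to 0.41 for MRC2, -0.55 to -0.25 for ITGB3, 0.56 to 1.17 for VTN and -0.36 to -0.21 for ITGA5. In batch 1 HIV-1+LTA differed from PBS by 0.15 for MRC2 and 0.062 for ITGB3, and from HIV-1 by -0.0086 for VTN and -0.12 for ITGA5 (log2 CPM). The signs for ITGB3 and VTN were thus opposite to the calls there. The most abundant plasminogen-binding gene was ANXA2, annexin A2, at a mean of 3729 CPM; it was at -0.25 (SE 0.0882, edgeR adjusted p 0.222) over PBS. ENO1 was at -0.14 (SE 0.0577), HMGB1 at -0.090 (SE 0.0613) and ITGB1 at -0.099 (SE 0.0557), none of them called.

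Of 11 other clade B serpins, the family of SERPINB2 and SERPINB7, 5 were tested and 0 were called by edgeR or DESeq2 in any comparison. Against PBS SERPINB8 was at -0.21 (SE 0.0834, edgeR adjusted p 0.247), SERPINB9, the granzyme B inhibitor, at 0.11 (SE 0.0639), SERPINB6 at -0.048 (SE 0.0548) and SERPINB1, an inhibitor of neutrophil proteases, at -0.0063 (SE 0.0549).

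**Figure D4:**
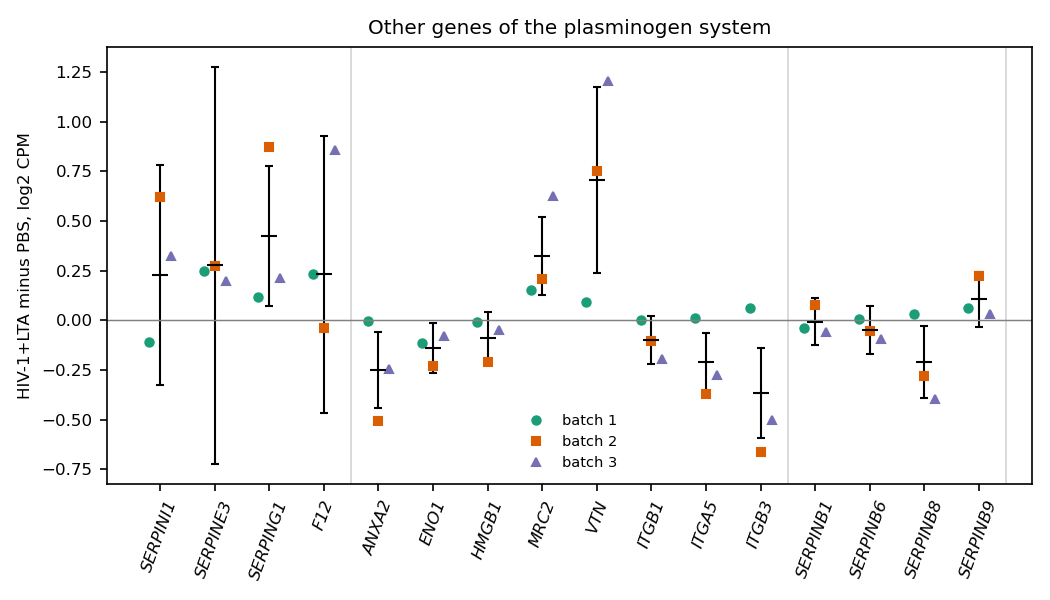
HIV-1+LTA minus PBS (y axis, log2 CPM) for named genes of the other inhibitors, the receptors and their partners, and the other clade B serpins (x axis, parted by grey lines), with the within-batch differences as coloured markers and the edgeR log2 fold change with its 95% interval in black. Among the fitted values ITGB3 is the lowest at -0.36 and VTN the highest at 0.71, and the batch 1 markers lie between -0.11 and 0.25.

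Genes with the most like pattern were found by the root mean square difference of log2 CPM with batch means removed, over 9 libraries. The 8255 candidate genes averaged at least 10 CPM. Symbols with name forms of pseudogenes, antisense or uncharacterised loci were left out. That rule also drops some coding genes, such as LRP1, so the genes named are the closest among the candidates only. For PLAU these were CSF1 (0.0916), ITGA2 (0.109) and GALNT16 (0.11), with 0.293 as the size of PLAU's own pattern on this scale. For PLAUR they were FLNC (0.0512), NRG1 (0.0624) and INSYN2B (0.0673), with 0.248 for PLAUR itself. For SERPINB7 they were CTPS1 (0.106), FGF5 (0.107) and DNAH11 (0.12), with 0.354 for SERPINB7. SERPINE2 (0.145 itself) was closest to ST3GAL5 (0.0124), CUEDC2 (0.0241) and HMGB2 (0.0273), and PLAT (0.129 itself) to LRRC17 (0.0271), DCBLD2 (0.0296) and LGALS1 (0.0454).

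The ChIP-seq peak list, from 1 library of HIV-1 treated cells whose labels give neither a target nor an antibody, holds 166 peaks (hg19). Its title names Lx2 cells but its cell line label reads Lx5, so whether these are the same cells as in the RNA libraries is not settled by the labels. None lies in or near these genes. The nearest is 379.8 kb from PLAUR, and for the other genes the nearest is at least 6038 kb away.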

How the data were processed

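RNA-seq counts of 9 LX-2 libraries (HIV-1+LTA, HIV-1 and PBS, 3 each, 24 h) and 1 ChIP-seq peak list were used. The submitters' processing notes name STAR, HTSeq, fastp, SAMtools, Bowtie2, deepTools and bedtools, on hg19; versions, annotation release and strand setting are not given in the sources used here. Raw counts of each gene symbol were deposited. Per the file headers, a second table holds the authors' DESeq2 output: p-values raw and adjusted, the Wald score, log2 fold changes with errors, and a mean signal of size-factor scaled counts. The peak list has no value per peak.

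Genes were kept by filterByExpr (16117 of 25265 with any count). The test was edgeR 4.0.16 quasi-likelihood, TMM, 1 fit of 9 libraries with batch as a block, Benjamini-Hochberg over all genes tested, threshold 0.05. CPM used TMM-scaled totals, and log2 CPM a prior count of 2. Length was the merged exon length of GENCODE on hg19. DESeq2 1.42.0 (total count of at least 10), limma-voom (limma 3.58.1), other scalings and filters, and left-out libraries were alternatives. R was 4.3.3. The tests were checked on simulated counts, with changes put into well-counted genes and equal in every batch. For HIV-1+LTA over PBS edgeR recovered 92.5% of the 1.5-fold changes, DESeq2 92.5% and limma-voom 89.6%, with 7, 13 and 11 false calls. Changes that differ between batches, as in these data, were not simulated.

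In the labels replicate and batch numbers coincide, so equal numbers pair libraries. Deviations from group means correlated at 0.705 to 0.917 within a batch, at 0.684 to 0.764 between batches 1 and 2 and at -0.835 to -0.769 between batch 3 and the others. The first 2 ranges overlap: HIV-1 replicate 1 correlated at 0.705 with HIV-1+LTA replicate 1 and at 0.764 with HIV-1+LTA replicate 2. The correlations thus set batch 3 apart but cannot show how libraries of batches 1 and 2 pair, which rests on the labels. No 2 libraries were copies: the smallest chi-square per degree of freedom between a pair was 3.80.

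The members and lists were chosen with earlier results of these data known. Named besides the members are genes of a list called by edgeR or DESeq2 with the block, the 4 of highest mean CPM per list, and the 3 closest genes per member. Promoter windows matched 5 of 5 genes looked up. Some genes of these pathways are not reported here.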

Additional observations from a re-analysis of the deposited data

How the results depend on the processing

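The calls changed with the libraries in the fit and with some choices of filter on low counts and of tool, but in edgeR not with the replicate block. Without the replicate block edgeR called 0 genes and 0 members in each comparison, and for HIV-1+LTA over PBS PLAU was at 0.41 (SE 0.615) and SERPINB7 at -0.73 (SE 0.463). Genes called (members called) in HIV-1+LTA over PBS, HIV-1+LTA over HIV-1 and HIV-1 over PBS were 236, 252 and 3 (1, 0 and 0) in DESeq2 with the block, 233, 250 and 1 (1, 0 and 0) in DESeq2 on the edgeR genes, and 1045, 1016 and 30 (4, 4 and 0) in edgeR with no filter. When limma-voom replaced edgeR, no gene, and so no member, passed in any of these comparisons. The same held in edgeR with RLE scaling, and with a filter asking for a mean of at least 1 CPM. The replicate block was kept in each of these fits. With only the 6 libraries compared, edgeR called 2 genes in HIV-1 over PBS. With 1 library or batch left out, genes called ran from 0 to 2648, 0 to 2390 and 0 to 5, and members from 0 to 4, 0 to 4 and 0 to 0. In DESeq2 left-out fits, added after seeing the data, genes called ran from 0 to 2419, 0 to 2108 and 0 to 46 in the same order. The highest of these were 18.8%, 15.9% and 0.45% of the genes with an adjusted p. Members called by DESeq2 ran from 0 to 3, 0 to 3 and 0 to 1.

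Signs turned for changes close to 0. In HIV-1 over PBS PLAT was at -0.0048 and -0.0022 in the DESeq2 fits and -0.0028 with RLE scaling, and SERPINE2 at -0.00015 without the replicate block, -0.0036 and -0.0010 in DESeq2 and -0.0012 with RLE. With libraries left out the ranges in HIV-1+LTA over PBS, HIV-1+LTA over HIV-1 and HIV-1 over PBS were -0.12 to 0.20, -0.11 to 0.21 and -0.092 to 0.083 for PLAT. In HIV-1 over PBS they were -0.00023 to 0.27 for PLAUR, -0.090 to 0.069 for SERPINE2 and -0.27 to 0.038 for SERPINB7. In DESeq2 they were -0.12 to 0.18, -0.11 to 0.21 and -0.10 to 0.072 for PLAT, and in HIV-1 over PBS -0.011 to 0.26 for PLAUR, -0.10 to 0.058 for SERPINE2 and -0.29 to 0.031 for SERPINB7. For HIV-1+LTA over PBS PLAU ran from 0.35 to 0.87, SERPINE2 from 0.16 to 0.37, PLAUR from -0.46 to -0.029 and SERPINB7 from -0.97 to -0.44. The cause was not tested. Among the 6 genes depth limits SERPINB2.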

Other observations

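Thrombin and plasmin act on the same clots, and of 13 genes of the tissue factor and thrombin axis 10 were tested; edgeR with the block called 0 in each comparison. In DESeq2 with the block 3 rose in HIV-1+LTA both over PBS and over HIV-1, comparisons that share the HIV-1+LTA libraries; 0.964% of all genes were called higher over PBS and 1.4% over HIV-1. TFPI, the inhibitor of tissue factor, was at 0.40 (SE 0.106, DESeq2 adjusted p 0.0276) over PBS, F2R, the thrombin receptor PAR1, at 0.36 (SE 0.0986, DESeq2 adjusted p 0.0295), and PROS1, protein S, at 0.49 (SE 0.119, DESeq2 adjusted p 0.0138). With each of 9 libraries left out in turn, in fits added after the calls were seen, the call over PBS was kept in 2 fits for TFPI, 3 for F2R and 4 for PROS1, and that over HIV-1 in 5 fits each; all were lost without HIV-1+LTA replicate 2 or 3. F3, tissue factor itself, was at -0.57 over PBS (SE 0.184, edgeR adjusted p 0.207) and was not called. In batch 1 HIV-1+LTA differed from PBS by -0.054 for TFPI, 0.055 for F2R, 0.094 for PROS1 and 0.091 for F3 (log2 CPM).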
